A study of Arabidopsis thaliana with 12 samples.

Results

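Of 1919 putative enhancer (PE) windows of the Arabidopsis thaliana genome, 206 (10.7%) were quiet in the poly(A)+ RNA of uninduced seedlings. A window was called quiet when its deposited signal lay under a common threshold on both strands in each of the 3 uninduced poly(A)+ libraries. The threshold lies just above 1001 and is the smallest signal above 0 in the library with the coarsest values, uninduced ribo-minus replicate 2. Each window spans 3000 bp, so the 206 windows give 412 of the 3838 strands measured, and joining overlapping ones leaves 184 separate loci. The signal is a whole number per window and strand, and how it was computed is not given in the sources used here.

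All seedlings were 7 days old and carried an inducible RNA interference construct against RRP41. Control seedlings were not induced, and knockdown seedlings germinated and grew on plates with 17b-estradiol. From the same total RNA of each biological replicate, a poly(A)+ library and a ribo-minus library, which keeps RNA without a poly(A) tail after removal of ribosomal RNA, were made. This gave 4 groups of 3 libraries, 12 in all, and the question was whether the windows are transcribed with and without exosome activity. The effects of estradiol, of the induced construct and of RRP41 depletion cannot be told apart, since each induced library carries all of them. The same 1 line supplied every group, and RRP41 itself lies in none of the 1919 windows, so the depletion was not checked here. None of the shoot, root, seed and pollen marker genes listed for a check of the tissue lies in a window either.

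The exosome, of whose core RRP41 is a part, trims and degrades RNA from its 3′ end. It removes short-lived noncoding transcripts, such as RNA made upstream of promoters, opposite to genes and from pseudogenes, and it matures ribosomal and other small RNAs. In animals, enhancers are transcribed into unstable RNA, often without a poly(A) tail, that becomes easier to detect when the exosome is depleted. A window without poly(A)+ signal can therefore lack transcription, hold RNA without a tail, or hold RNA that is degraded quickly.

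The sequences of 5 stretches are shown because the results below turn on their windows. They were read from RefSeq assembly TAIR10.1, whose nuclear chromosomes are those of TAIR10, and run 5′ to 3′ on the strand that carried the signal. The first 3 come from windows whose signal lay above the threshold in all libraries of induced poly(A)+ RNA. They are the midpoint of the AT3G28170 window (chr3:10501048-10501247, plus strand), the midpoint of the window beside the pseudogene AT2G17490 (chr2:7603289-7603488, minus strand) and the 69-base gap between PUP6 and PUP8 (chr4:10069389-10069457, minus strand). The other 2 come from windows whose signal was high in ribo-minus RNA, the midpoint of the window between G3Pp3 and HERK2 (chr1:10827024-10827223, plus strand) and the 200 bases before the annotated start of AT1G67120 (chr1:25095639-25095838, minus strand). Capitals mark TGGGCC, the site II element found in many plant promoters, which was searched on both strands.
AT3G28170 window: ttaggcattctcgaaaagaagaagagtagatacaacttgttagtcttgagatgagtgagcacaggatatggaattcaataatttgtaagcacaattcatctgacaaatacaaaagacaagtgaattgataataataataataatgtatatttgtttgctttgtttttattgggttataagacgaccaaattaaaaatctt
AT2G17490 window: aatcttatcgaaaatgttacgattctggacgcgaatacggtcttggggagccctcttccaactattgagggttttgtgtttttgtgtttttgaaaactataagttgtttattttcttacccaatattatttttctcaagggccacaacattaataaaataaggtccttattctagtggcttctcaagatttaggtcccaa
PUP6 to PUP8 gap: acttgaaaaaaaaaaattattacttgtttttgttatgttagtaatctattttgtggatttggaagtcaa
G3Pp3 to HERK2 window: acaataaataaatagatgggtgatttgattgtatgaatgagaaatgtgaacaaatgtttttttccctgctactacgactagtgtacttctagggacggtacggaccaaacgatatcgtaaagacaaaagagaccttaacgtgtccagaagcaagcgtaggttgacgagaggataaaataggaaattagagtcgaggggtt
before AT1G67120: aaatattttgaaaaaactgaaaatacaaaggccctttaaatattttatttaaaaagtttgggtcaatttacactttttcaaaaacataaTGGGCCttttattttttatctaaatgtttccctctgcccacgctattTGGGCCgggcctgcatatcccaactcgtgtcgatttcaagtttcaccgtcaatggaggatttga
TGGGCC stood at bases 90 to 95 and 137 to 142 of the stretch before AT1G67120, and in none of the other 4. The stretch from the AT2G17490 window overlaps the lncRNA gene AT2G06945, which lies on the opposite strand. GC content ran from 21.7% in the PUP6 to PUP8 gap to 39.0% between G3Pp3 and HERK2.

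The quiet windows lay at gene starts and in intergenic sequence more often than the set as a whole. The midpoint fell outside annotated genes in 131 of the 206 (63.6%, against 42.3% of all windows), in a 5′ UTR in 27 (13.1% against 11.3%) and in a noncoding gene or pseudogene in 13 (6.31% against 3.18%). A 3′ UTR held the midpoint in 7 (3.4%), against 23.6% of all windows, and a coding exon in 10 (4.85% against 13.4%). The start of a coding gene lay inside 164 quiet windows (79.6% against 63.6%), whereas the 3′ end of one lay inside 108 (52.4% against 80.6%). Genes stood on 1 strand only in 144 windows (69.9% against 58.6%) and on both strands in 61 (29.6% against 41.4%), and 1 window held no gene. The coding genes touched had a median length of 2269 bp, against 2786 bp over all windows. These shares are descriptions, since the windows were chosen by low signal.

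**Figure D1:**
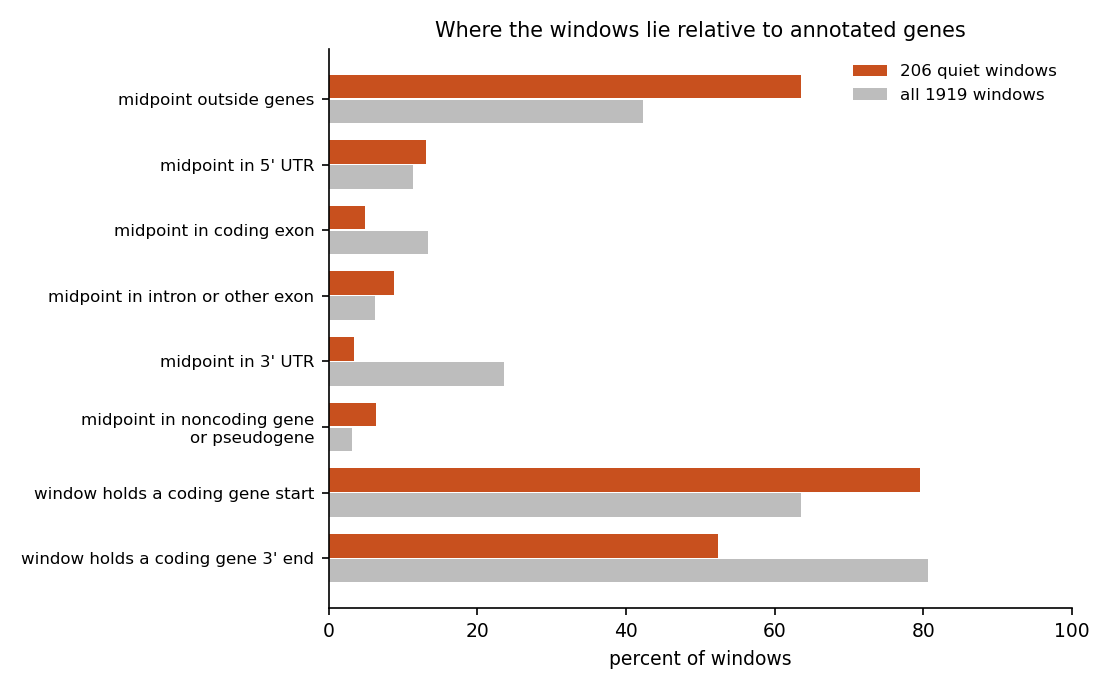
Share of windows (percent, horizontal axis) in each class of midpoint, and share that hold the start or the 3′ end of a coding gene, for the 206 quiet windows (orange) and all 1919 windows (grey). Midpoints outside genes made up 63.6% of quiet windows and 42.3% of all, and 3′ ends lay in 52.4% and 80.6%.

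In the central 200 bases, TGGGCC on either strand was found in 25.7% of quiet windows and 15.3% of all windows. The related TGGGCT stood in 17.5% and 14.2%, the TATA element TATAAA in 31.6% and 26.9%, and the telo box AAACCCTA in 1.46% and 2.4%. Midpoints outside genes were also more frequent among the quiet windows, and the part of that position in the motif shares was not tested. In the 250 bases before the 272 coding genes touched by quiet windows, TGGGCC occurred in 18%, against 13.7% of all 27443 coding genes. Median GC content over the whole window was 36.4% (range 28.9% to 44.8%) and 37.3% over all windows.

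A stretch of at least 500 bases with at least 90% identity elsewhere in the genome was present in 33 quiet windows (16%), against 9.17% of all windows. How the authors treated reads that match several places is not given in the sources used here, so signal in such windows may be shared with or lost to the copy. The AT3G28170 window is one of them. Its bases 647 to 1323 recur with 99.6% identity at chr3:10494354-10495030 and, over 681 bases, with 94.4% identity at chr2:2578591-2579265. The midpoint stretch printed above lies outside the repeated part.

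By gene type, 28 quiet windows touched an lncRNA gene (13.6% against 9.69% of all windows), 14 a pseudogene (6.8% against 2.45%) and 10 a transcribed pseudogene (4.85% against 3.6%). Genes for snRNA, snoRNA and tRNA make RNA without a poly(A) tail. They lay in 10, 6 and 73 windows of the series, of which 0, 0 and 1 were quiet. A few groups of coding genes were picked after the member genes were seen. Genes for B3-domain proteins, a family of DNA-binding transcription factors, lay in 8 of 24 such windows. Words for ubiquitin carboxyl-terminal hydrolases, enzymes that remove ubiquitin from proteins, matched in 7 of 19. Of the genes matched, AT1G52430, AT1G52450, AT2G27630 and AT2G27650 are annotated as hydrolase-related proteins and MEE20 with an unknown molecular function. Whether their products have this activity is not given. Pentatricopeptide repeat genes, whose products act mostly on organellar RNA, lay in 12 of 77. Further families were found by words in the annotation, which can also match a gene of another family. F-box matches lay in 9 of 70 windows, of which 2 rest on AT5G03000 and AT5G28180, annotated as kelch repeat proteins. AGAMOUS-like or MADS matches lay in 4 of 19, of which 1 rests on AT1G50780, annotated as ferredoxin-like. Receptor-like or leucine-rich repeat kinase genes lay in 8 of 78, and defensin-like or seed storage genes in 0 of 9 and 0 of 16. Heat shock genes lay in 3 of 37 windows, cytochrome P450 genes in 1 of 18, words for ethylene response or DREB factors matched in 2 of 15 (ERF53 and AT3G23060, the latter annotated as a RING/U-box protein), and transposase or retrotransposon genes in 2 of 18. Genes of the exosome and its cofactors lay in 2 windows of the series, neither of them quiet.

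Also picked after the member genes were seen were 17 genes named for meiosis, pollen, sperm or embryo development, which lay in 19 quiet windows. Since they were looked up among the quiet windows, their number says nothing about enrichment. They include SPO11-2, which makes meiotic DNA breaks, SYN2, a cohesin subunit, GEX2, a sperm surface protein needed for gamete attachment, and the pollen transcription factors WRKY34, MYB97, DAZ2 and DAZ3. At the WRKY34 window (chr4:13358265-13361264, minus strand) every library was at 0 except uninduced ribo-minus replicate 1, at 389. At MYB97 (chr4:13526130-13529129, plus strand) only induced poly(A)+ replicate 3, at 289, and that same ribo-minus library, at 389, were above 0. At SYN2 (chr5:16362368-16365367, minus strand) all 12 libraries held signal, at 439, 610 and 808 in uninduced and 965, 479 and 334 in induced poly(A)+ RNA, 506, 1463 and 1901 in uninduced and 1035, 697 and 993 in induced ribo-minus RNA. The SYN2 window holds stretches with 11 similar copies in the genome. Of the 19 windows, 5 were above the threshold in none of the 12 libraries, against 70 of all 206 quiet windows.

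Quiet did not mean empty. In uninduced poly(A)+ RNA, 22 of the 206 windows were at 0 on both strands in all 3 libraries and 184 held some signal, and the median over windows of the highest value was 602. The highest value lay under 500 in 82 windows and from 900 to under the threshold in 20. Just inside the threshold stood the windows at chr1:253141-256140 with a highest value of 992, chr5:16906535-16909534 with 993 and chr3:18323086-18326085 with 1001. Just outside stood chr5:8302808-8305807 with 1007, chr1:4599727-4602726 with 1010 and chr1:5530672-5533671 with 1015. The first of those outside reached 8036, 7088 and 7802 on its plus strand in induced ribo-minus RNA. The threshold thus cuts through a continuous range of values.

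In all, 6 windows held no signal in any library on either strand and are thus quiet by definition. They are chr1:30340535-30343534 at the start of CMT1, a chromomethylase gene, chr2:14956488-14959487 at a decapping 2 pseudogene, chr4:8211937-8214936, chr5:3518477-3521476 at AT5G11080, a ubiquitin-like protein gene, chr5:10161159-10164158 at AT5G28180 and chr5:10637915-10640914 inside the pseudogene AT5G28635. The AT5G28180 window holds stretches with 3 similar copies in the genome. A further CMT1 window, chr1:30345227-30348226, held signal on its plus strand in most libraries, with 801, 356 and 707 in uninduced and 1211, 302 and 571 in induced poly(A)+ RNA. Over the whole series, 70 windows exceeded the threshold in none of the 12 libraries, which makes them quiet by definition. At the other extreme, 48 quiet windows held signal in all 12 libraries, against 1706 of all windows.

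The 3 miRNA genes in quiet windows are shown by their mature sequences in RefSeq TAIR10.1, with the seed, bases 2 to 8, in capitals, because a primary miRNA transcript is a short-lived poly(A)+ RNA. The 4 mature sequences hold 4 different seeds.
miR864-5p (chr1:6740503-6740523, plus strand): tCAGGTATgattgacttcaaa
miR864-3p (chr1:6740569-6740590, plus strand): tAAAGTCAataataccttgaag
miR157d (chr1:18026989-18027008, minus strand): tGACAGAAgatagagagcac
miR8173 (chr5:7478572-7478592, minus strand): aTGTGCTGattcgaggtggga
At MIR864, the plus strand read 391, 0 and 636 in uninduced and 540, 398 and 827 in induced poly(A)+ RNA. At MIR157d, a member of the miR156 and miR157 family that lowers SPL transcription factors in young plants, the minus strand read 792, 696 and 530 in uninduced and 901, 271 and 536 in induced poly(A)+ RNA. In both windows the groups overlapped. The minus strand of the MIR8173 window was at 0 in all 12 libraries. These windows also touch other genes, and the signal cannot be assigned to the miRNA transcript.

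How many quiet windows exceeded the threshold differed between libraries of a group. In induced poly(A)+ RNA, 40, 8 and 18 windows exceeded the threshold on a strand in replicates 1, 2 and 3. In uninduced ribo-minus RNA the counts were 11, 76 and 84, and in induced ribo-minus RNA 78, 11 and 17. The smallest signal above 0 moved with these counts. It was 450, 181 and 216 in induced poly(A)+ RNA, 389, the threshold itself and 786 in uninduced and 776, 107 and 178 in induced ribo-minus RNA, against 313, 228 and 353 in uninduced poly(A)+ RNA. In the 3 libraries with 76 or more windows above the threshold, a strand with any signal held at least 776. The part of this in the counts was not tested, and a single library above the threshold is therefore given below as a value only. Of all windows, 72.2% to 90.8% exceeded the threshold per library.

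**Figure D2:**
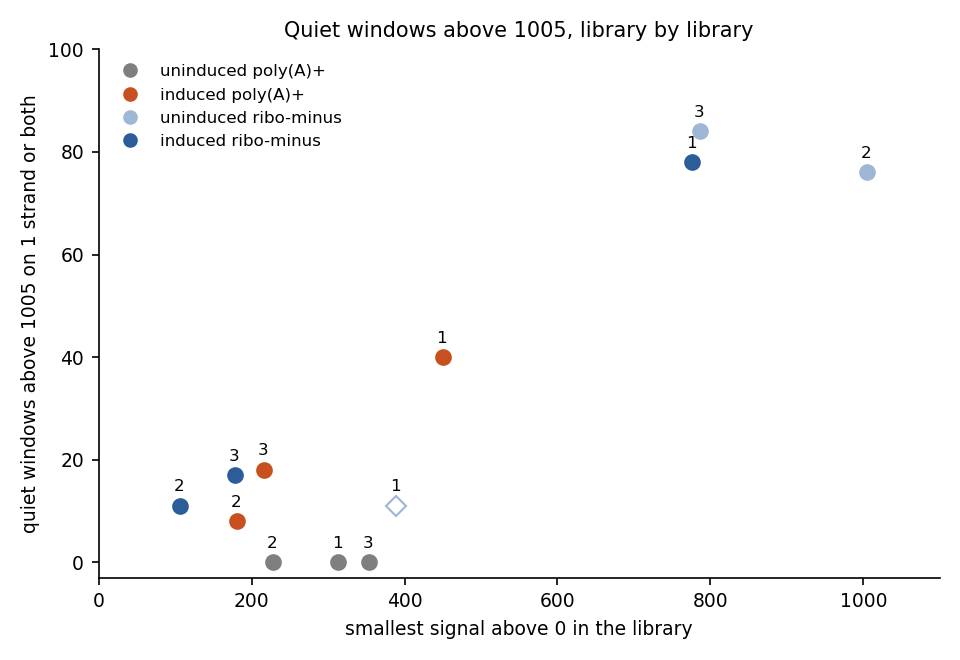
Number of the 206 quiet windows above the threshold on 1 strand or both (vertical axis) against the smallest signal above 0 (horizontal axis, deposited units) in each of the 12 libraries, which are numbered by replicate. Uninduced poly(A)+ libraries lie at 0 by the rule that chose the windows, the open diamond is uninduced ribo-minus replicate 1, and the 3 libraries with the largest counts (76, 78 and 84) are those whose smallest value is 776 or more.

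Uninduced ribo-minus replicate 1 held the same value on both strands of all 1919 windows, so its strands were not separated. Where genes stood on 1 strand only, the gene strand held 96.0% to 98.6% of the signal in poly(A)+ libraries, 96.7% and 96.5% in uninduced ribo-minus replicates 2 and 3, and 76.7% to 81.5% in induced ribo-minus libraries. The unseparated library was left out of the fits. In bulk RNA such as this, fewer cells with a transcript and less of it per cell cannot be told apart.

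After induction, 4 quiet windows, with 5 strands, exceeded the threshold on the same strand in all 3 poly(A)+ libraries. Of all 1919 windows, 83.3% met that mark. Another 11 quiet windows exceeded the threshold in exactly 2 induced libraries and 32 in exactly 1, and 159 in none. Because the windows were chosen by low uninduced values, some rise is built in and no test of induced against uninduced poly(A)+ RNA is given. That the groups of these 5 strands do not overlap is likewise set by the choice. For the mirrored choice, 186 windows were quiet in induced poly(A)+ RNA, and 3 of them (1.61%) exceeded the threshold on a strand in all uninduced libraries. The 4 windows differed in how far above the threshold they lay, as the plot of their values shows.

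The largest signal was in the window chr3:10499648-10502647, in which AT3G28170, a gene of unknown function on the plus strand, ends after 713 bp. Whether the plus-strand signal lies in the gene or beyond it cannot be read from 1 value per window. On the plus strand the signal was 990, 515 and 899 in uninduced poly(A)+ RNA and 7546, 5421 and 6322 in induced poly(A)+ RNA, a ratio of means of 8.02 (means ± SD, n = 3, of 801 ± 252 and 6430 ± 1067). On the minus strand, where no gene is annotated, it was 313, 305 and 353 uninduced and 1616, 1623 and 2201 induced, a ratio of 5.6. In ribo-minus RNA the plus strand read 2186 and 3558 in uninduced replicates 2 and 3, 1091 on each strand of replicate 1, and 2957, 1971 and 2672 after induction, so the groups overlapped. The minus strand was at 0 in uninduced ribo-minus replicates 2 and 3 and at 776, 499 and 447 after induction. Those 0s limit the signal only to below the threshold and 786. Over windows with genes on 1 strand only, induced ribo-minus libraries also held a smaller share on the gene strand (76.7% to 81.5%) than those uninduced ones. The part of this in the minus-strand values was not tested. This is the window with a near-identical copy close by.

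On the minus strand of chr4:10068201-10071200 no gene is annotated, and PUP6 and PUP8, related to a purine transporter, lie on the plus strand. The minus strand read 944, 556 and 789 in uninduced and 3799, 3557 and 2938 in induced poly(A)+ RNA, a ratio of means of 4.5. In ribo-minus RNA it read 1207 and 899 in uninduced replicates 2 and 3, 487 on each strand of replicate 1, and 2136, 970 and 1182 after induction, so those groups overlapped. The signal was therefore antisense to the annotated genes. Induced ribo-minus libraries held only 76.7% to 81.5% on the gene strand where genes stood on 1 strand only. The part of this in the ribo-minus values was not tested.

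On the minus strand of chr2:7601889-7604888 the pseudogene AT2G17490 reaches 233 bp into the window, and the lncRNA genes AT2G06945 and AT2G06955 lie on the other strand. The minus strand read 418, 305 and 353 in uninduced and 1294, 1724 and 2740 in induced poly(A)+ RNA, a ratio of means of 5.35. In ribo-minus RNA it was at 0 in all 3 uninduced libraries and at 1812, 819 and 1345 in induced ones. The 0 in uninduced replicates 2 and 3 limits the signal only to below the threshold and 786, the smallest values of those libraries. Where genes stood on 1 strand only, the gene strand held 76.7% to 81.5% of the signal in induced ribo-minus libraries, against 96.7% and 96.5% in those 2. The part of this in the minus-strand values was not tested. With all lower values raised to the threshold, the fitted ribo-minus change was 0.42 on the log2 scale. The strand entered that fit only through induced libraries above the threshold, which set its direction, so no p is given.

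The fourth window, chr4:284110-287109, lies where AT4G00695 ends and AT4G00700, a C2-domain protein gene, starts on the same plus strand. It read 871, 736 and 990 in uninduced and 1126, 1095 and 1179 in induced poly(A)+ RNA, a ratio of means of 1.31. Its groups stood on different sides of the threshold although every value lay between 736 and 1179. In ribo-minus RNA it read 2106 and 2221 in uninduced replicates 2 and 3, 584 on each strand of replicate 1, and 2743, 1314 and 1198 after induction.

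**Figure D3:**
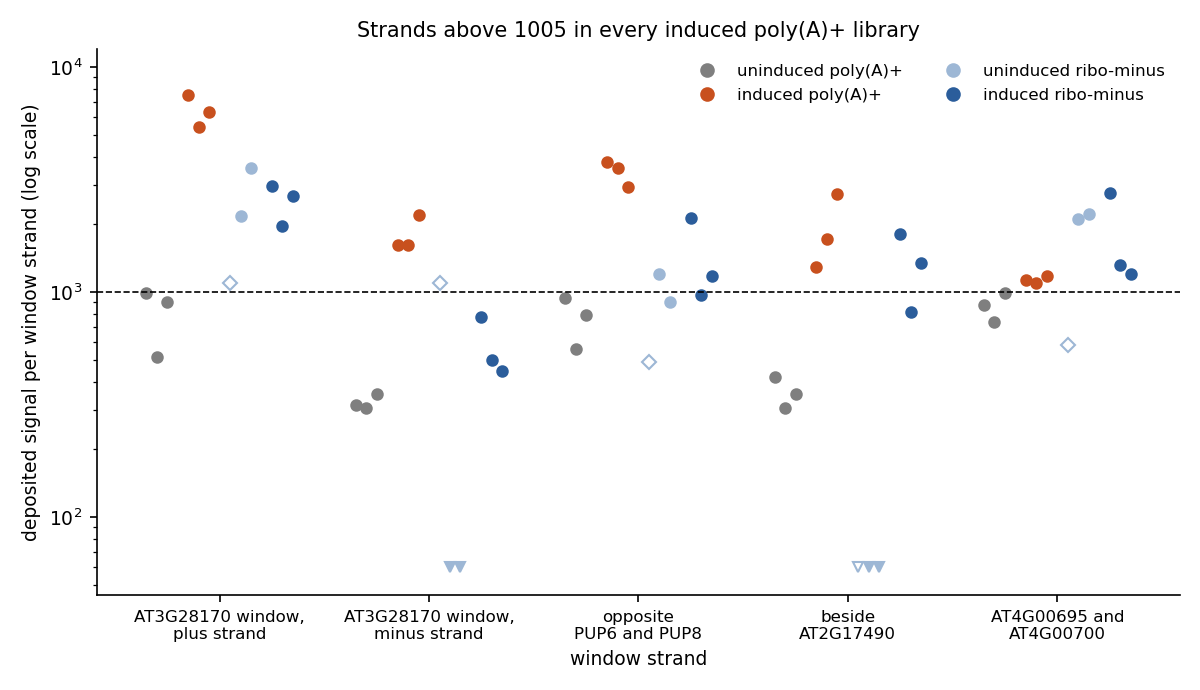
Deposited signal (log axis) of the 5 strands above the threshold in all induced poly(A)+ libraries, 1 point per library, for the 4 groups. The dashed line marks the threshold, triangles at the bottom mark values of 0, and open symbols mark the library with unseparated strands. Induced poly(A)+ values reach 7546 in the AT3G28170 window and stay between 1095 and 1179 at AT4G00695 and AT4G00700.

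The counts depended on the threshold and on single libraries. Above 2000, 2 windows remained. After median-ratio scaling of the libraries, which made 311 windows quiet, 11 of those met the mark. Without induced replicate 2, 12 windows met it. Without uninduced replicates 2 or 3, which lets more windows count as quiet, 8 and 12 did. With a mark of at least 5 times each library's own smallest value, added after seeing the data, the AT3G28170 window and the one opposite PUP6 and PUP8 met it.

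Some of the highest induced values came from 1 library each and were seen in no other. On the minus strand of chr1:10454951-10457950, at AT1G29870, a tRNA synthetase family gene, induced poly(A)+ replicate 1 held 21921, replicates 2 and 3 held 535 and 433, and the uninduced libraries were at 0. On the plus strand of the overlapping windows chr2:143369-146368 and chr2:143848-146847, at the start of MEE65, induced poly(A)+ replicate 2 held 82351 in both. Replicate 1 was at 0 in both windows and replicate 3 was at 216 and 0. On the minus strand of chr3:17222226-17225225, opposite the B3-domain gene AT3G46770, induced replicate 3 held 6936 and the others 0 and 226. These windows were singled out after their values were seen.

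Of the 12 pentatricopeptide repeat windows, 5, 1 and 3 exceeded the threshold in induced poly(A)+ replicates 1, 2 and 3, against 40, 8 and 18 of all 206 quiet windows. None of the 12 did so in all 3, against 4 of the 206. The 3 windows that follow were chosen after their values were seen. Their uninduced values lay under the threshold by the choice of windows, so a rise is partly built in. At AT1G31840 (chr1:11426020-11429019, plus strand) the values were 418, 457 and 598 uninduced and 1097, 1078 and 952 induced. That window holds stretches with 40 similar copies in the genome. At MEF22, a gene for editing of mitochondrial RNA (chr3:4057811-4060810, minus strand), they were 924, 947 and 871 uninduced and 1164, 999 and 1235 induced. At AT3G53360 (chr3:19782323-19785322, plus strand) they were 749, 605 and 618 uninduced and 450, 511 and 340 induced. Of the 7 windows with ubiquitin carboxyl-terminal hydrolase matches, none exceeded the threshold in an induced poly(A)+ library, the highest value being 939. The same held for 159 of all 206 quiet windows. Of the 9 windows with F-box matches, 7 exceeded the threshold in no library of any group, against 70 of the 206. Of the 8 receptor-like kinase windows, 3, 0 and 1 exceeded the threshold in the 3 induced poly(A)+ libraries, against 40, 8 and 18 of the 206.

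In ribo-minus RNA, 10 quiet windows exceeded the threshold on the same strand in all 3 induced libraries, against 75.7% of all windows. Each of these 10 strands also exceeded the threshold in uninduced replicates 2 and 3, so none appeared only after induction by this mark. In total 53 quiet windows exceeded the threshold on the same strand in both of those uninduced libraries. Taken singly and on either strand, 90.8% of all windows exceeded it in each of the 2 libraries. The share of all windows above it on the same strand in both was not computed. The smallest values above 0 of these 2 libraries were the threshold itself and 786, against 776, 107 and 178 in the induced libraries. The counts of 53 and 10 are therefore not comparable. Over both fractions, 12 windows met the mark in at least 1, and 2 strands met it in both, the plus strands of the AT3G28170 window and at AT4G00695 and AT4G00700. With the mark of at least 5 times each library's smallest value, also added after seeing the data, 3 windows stayed, those of AT1G67120 and the one before HERK2. Without 1 library, the number ran from 10 to 14. Median-ratio scaling gave 61, counted among the 311 windows quiet after scaling.

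The highest ribo-minus signal lay on the gene strand of AT1G67120. The annotation calls it a homolog of the yeast MDN gene, whose product acts in assembly of the large ribosomal subunit. The gene runs over 26211 bp of the minus strand, and chr1:25094249-25097248 holds its annotated start, 24821 bp from the 3′ end. There the signal was 313, 0 and 625 in uninduced and 676, 425 and 357 in induced poly(A)+ RNA. In ribo-minus RNA it was 3682 and 6404 in uninduced replicates 2 and 3, 2893 on each strand of replicate 1, and 6048, 6286 and 6717 after induction. Bases 1638 to 2647 of this window, which lie before that start, recur with 92.0% identity at chr2:8590625-8591647. Whether the copy shares in the signal was not tested. A second window, chr1:25078920-25081919, lies wholly inside the same gene, 9492 bp from its 3′ end. It read 724, 483 and 757 in uninduced and 1461, 973 and 1124 in induced poly(A)+ RNA, 4023 and 7075 in uninduced ribo-minus replicates 2 and 3, 2494 on each strand of replicate 1, and 4583, 5968 and 5511 after induction. In both windows every ribo-minus value was above every poly(A)+ value, an order partly set by choosing windows low in poly(A)+ RNA and strands high in ribo-minus RNA.

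The plus strand of chr1:10825624-10828623 holds the end of G3Pp3, a glycerol-3-phosphate permease gene, and the first 251 bp of HERK2, a receptor kinase gene needed for cell elongation. It read 627, 362 and 656 in uninduced and 676, 510 and 1217 in induced poly(A)+ RNA. In ribo-minus RNA it read 1508 and 4720 in uninduced replicates 2 and 3, 1142 on each strand of replicate 1, and 4302, 3839 and 5100 after induction. The highest poly(A)+ value, 1217, lay above the unseparated library and below all other ribo-minus values.

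A further 5 strands high in ribo-minus RNA lay at starts of coding genes, which 79.6% of quiet windows and 63.6% of all windows hold. At POK2 (chr3:6576065-6579064, plus strand), a kinesin gene that orients the division plane, poly(A)+ values were 0, 343 and 0 uninduced and 0, 181 and 289 induced, and ribo-minus values were 3391 and 3587 in uninduced replicates 2 and 3, 1384 on each strand of replicate 1, and 1657, 1559 and 2422 induced. This window also holds a pseudogene, AT3G19045, and stretches with 7 similar copies. At MSH1 (chr3:8828242-8831241, minus strand), which guards the stability of organelle genomes, induced poly(A)+ values were 901, 775 and 767 and induced ribo-minus values 1845, 1772 and 1306. At NET1C (chr4:1196117-1199116, minus strand), of a family of actin-binding proteins, they were 1644, 653 and 969 against 3298, 2052 and 2007. At AT3G49400 (chr3:18323086-18326085, minus strand), a WD40 repeat gene, they were 948, 910 and 535 against 2423, 1672 and 1177. At AT3G10310 (chr3:3188379-3191378, plus strand) they were 1014, 658 and 774 against 2454, 1110 and 1311. In each of these 5 windows every induced ribo-minus value lay above every induced poly(A)+ value. That order was largely set by choosing windows low in poly(A)+ RNA and strands above the threshold in induced ribo-minus RNA.

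The difference between fractions was fitted in induced seedlings, 3 ribo-minus against 3 poly(A)+ libraries, with limma on log2 values after every lower value was raised to the threshold, and with Benjamini-Hochberg adjustment over all strands tested. The fit was limited to strands above the threshold in at least 3 of the 6 libraries. Of 2108 strands of all windows, 84.2% differed at an adjusted p under 0.05, 81.5% lower and 2.7% higher in ribo-minus RNA, with a median change of -1.39 on the log2 scale. Of the 412 quiet strands, 18 in 17 windows passed the filter and 10 were called, 7 higher and 3 lower. Only 2 of the 18 were above the threshold in all 6 libraries, the plus strands of the AT3G28170 window and of AT4G00695 and AT4G00700. The other 16 were not, so they passed partly or wholly through the fraction in which they were high, and the windows were chosen for low poly(A)+ signal. Their direction was largely set by these choices, so they are described by their values, without a p.

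In deposited values, the mean induced ribo-minus signal was 13.1 times the mean induced poly(A)+ signal at the start of AT1G67120, 12 times at POK2, 5.51 times before HERK2 and 4.51 times inside AT1G67120. The ratio of means was 2.25 at NET1C, 2.2 at AT3G49400, 2.02 at MSH1, 1.99 at AT3G10310 and 1.55 at AT4G00695 and AT4G00700. The fitted differences on the log2 scale, which are understated wherever poly(A)+ values were raised to the threshold, were 2.66 at the start of AT1G67120, 2.17 inside it, 2.03 before HERK2 and 0.87 at POK2. At AT4G00695 and AT4G00700, above the threshold in all 6 libraries, the change was 0.52 (limma, adjusted p = 0.143), 0.15 without induced ribo-minus replicate 1 (adjusted p = 0.479) and 1.39 with median-ratio scaling, where it was called (adjusted p = 0.00257). Without 1 ribo-minus library the start of AT1G67120, POK2, MSH1 and AT3G49400 no longer passed the filter.

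Among the 7 strands called higher in ribo-minus RNA, 6 hold the start of a gene on their strand and 1, inside AT1G67120, does not. Of the quiet windows, 79.6% hold the start of a coding gene on either strand, against 63.6% of all windows. The 6 are therefore not read as a trait of these strands. Several of the genes that start in these 6 run far beyond the window. The annotated 3′ end of POK2 lies 11189 bp beyond it, that of MSH1 5318 bp, that of AT3G49400 4026 bp, that of HERK2 3033 bp and that of NET1C 2601 bp. The 3′ ends of other genes on the same strand do lie inside 3 of these windows, those of G3Pp3 before HERK2, of AT3G19045 and the lncRNA gene AT3G03795 beside POK2, and of the lncRNA gene AT3G24332 beside MSH1. The signal of a whole window cannot be divided between these genes. As the quiet windows hold 3′ ends less often than all windows do, this position moves with the choice of windows, and its part in the result was not tested.

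The 3 strands called lower in ribo-minus RNA were among those above the threshold in all induced poly(A)+ libraries. On the plus strand of the AT3G28170 window, above the threshold in all 6 libraries, the change was -1.35 (limma, adjusted p = 0.000341), close to the median of all strands, -1.39. With median-ratio scaling, which moves that median to -0.03, it was 0.05 and was not called (limma, adjusted p = 0.871). Opposite PUP6 and PUP8 the fitted change was -1.32, and 0.06 with scaling. On the minus strand of the AT3G28170 window, whose ribo-minus values all lay under the threshold, it was -0.84, -0.13 with scaling and -1.69 with 1 added to each value and no floor. With scaling, 12 of 25 quiet strands were called, all higher, and the split over all strands became 360 higher and 383 lower. The change at the AT2G17490 window was -0.44.

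**Figure D4:**
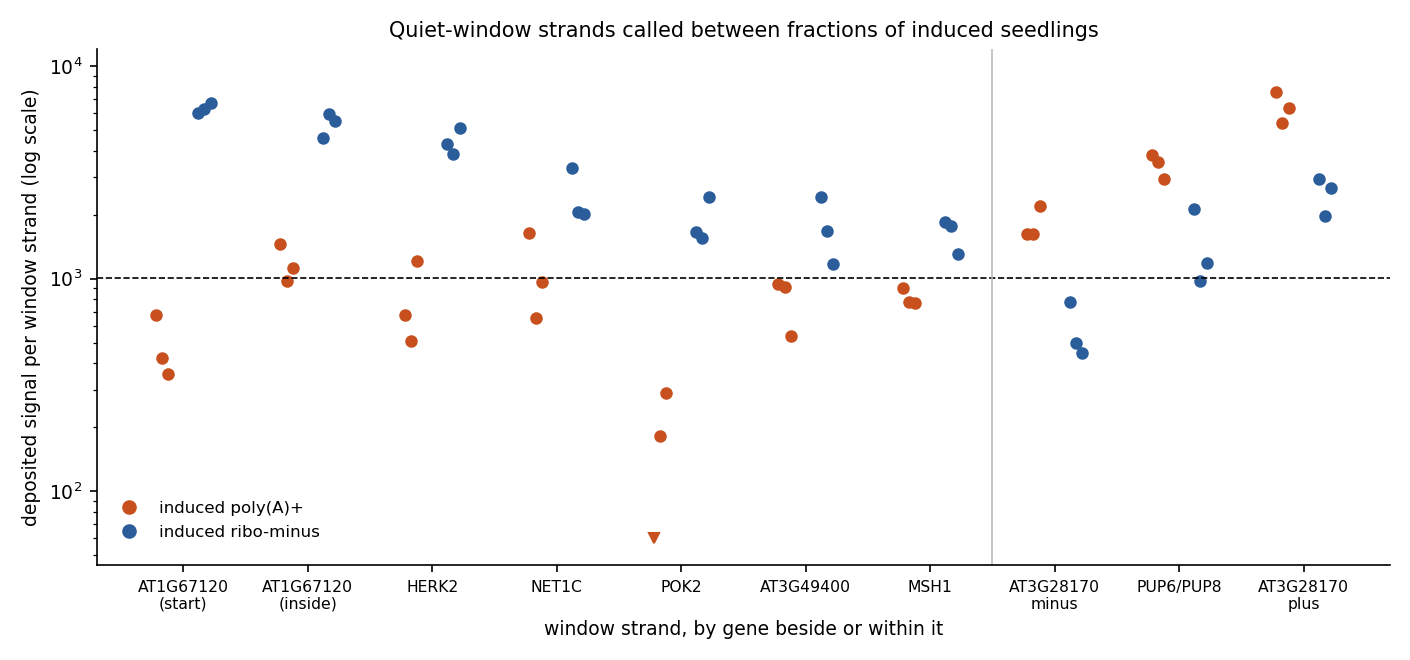
Deposited signal (log axis) in the 3 induced poly(A)+ and the 3 induced ribo-minus libraries, 1 point per library, for the 10 quiet-window strands called in the comparison of fractions, ordered by fitted fold change. The dashed line marks the threshold and the triangle a value of 0. To the left of the vertical line are the 7 strands higher in ribo-minus RNA, led by AT1G67120 with values of 6048, 6286 and 6717, and to the right the 3 strands lower in it.

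The effect of induction within ribo-minus RNA was tested over 5 libraries with separated strands, 3 induced against uninduced replicates 2 and 3, on strands above the threshold in at least 2 of them. Of 2328 strands of all windows, 0.601% were called by limma, 0.387% higher and 0.215% lower after induction. Of the 78 quiet strands in 73 windows that passed the filter, 0 were called and 19 had an unadjusted p under 0.05, against 390 of all strands tested. Their median change was -0.24 on the log2 scale, against -0.18 over all strands, and 9 of the 78 were higher. With median-ratio scaling these medians were -0.41 and -0.01. The 2 uninduced libraries are those with the largest smallest values, the threshold and 786. A quiet strand with any signal there thus held at least the threshold in the one and at least 786 in the other.

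Of the 78 strands, 42 passed the filter through both uninduced libraries with at most 1 induced library above the threshold, which favours lower values after induction, and 15 were above it in at least 2 induced libraries. Most of the 19 strands with an unadjusted limma p under 0.05 are among those 42. The quiet strand ranked first in this fit was the plus strand of chr4:8678443-8681442, which holds the ABC transporter genes ABCG41 and ABCG30. It read 2251 and 2224 in uninduced replicates 2 and 3, 913 on each strand of replicate 1, and 1412, 998 and 558 after induction, a change of -0.99 on the log2 scale. It is one of those 42, so its direction was largely set by the filter and no p is given. The largest change by size was on the plus strand of chr1:9432799-9435798, at AT1G27170, whose product is annotated as a transmembrane receptor, and was singled out after its values were seen. It read 6413 and 1906 in uninduced replicates 2 and 3, 519 on each strand of replicate 1, and 1337, 1107 and 661 after induction, a change of -1.61 ± 0.49 (SE, limma, adjusted p = 0.169). With the threshold added to each value before the log it was the 1 quiet strand called (limma, adjusted p = 0.045). Over the alternatives its adjusted p by limma ran from 0.0244, with all 11 libraries in the model, to 0.802, with the unseparated library kept, and without uninduced replicate 2 the change was -0.74 (adjusted p = 0.261). When all 11 libraries with separated strands were fitted in 1 model, which shares the estimate of spread between fractions, 18 quiet strands were called, all lower. In that same fit 207 strands of all windows were called, 176 of them lower. Most of the 18 were above the threshold in both uninduced libraries and in at most 1 induced library. Their direction was thus largely set by the filter. The count of quiet strands called was 0 under each left-out library.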

How the data were processed

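For each library the authors deposited a signal per PE window and strand, in whole numbers, for which the normalization is not stated. CASAVA 1.8.2, TopHat2 2.0.9, Cufflinks 2.1.1, Cuffdiff and TAIR10 are named in the submitters' processing notes, with no role given. Read depth is unknown, and the smallest signal above 0 per library (107 to 1005) was taken as its resolution.

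Quiet windows were taken at 1005, values below 1005 were raised to it, and limma 3.58.1 (R 4.3.3, eBayes with trend) was fitted on log2 values over all windows, with Benjamini-Hochberg adjustment at 0.05. The fits were tested on simulated data: in the ribo-minus knockdown 44% of changes of 1 and 95% of changes of 2 on the log2 scale were recovered in a fit of 2780 strands, and in the comparison of fractions 84% and 100% of 2570. Changes were set only in strands whose mean lay more than 1 log2 unit above 1005. The shares recovered therefore do not apply to quiet strands near 1005, for which recovery was not tested. Genes, promoters and motifs came from RefSeq TAIR10.1 and copies from BLAST+ 2.17.0, and tables and figures used Python 3.11.15. Coordinates count from 1.

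Same-numbered poly(A)+ and ribo-minus libraries come from the same total RNA, per the labels' protocols, and their deviations from the group means correlated (0.248, 0.113 and 0.369). Named are windows above 1005 in all induced libraries of a fraction, called strands, the windows nearest the threshold, the highest uninduced ribo-minus strands, miRNA windows and windows without signal. Windows and gene lists were chosen with earlier results of these data known. Alternatives covered thresholds, scaling, filters, the scale of values, the model and left-out libraries. Replicates are biological per the labels.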

Additional observations from a re-analysis of the deposited data

How the results depend on the processing

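With a threshold of 500 or 2000, 82 or 336 windows were quiet, and with median-ratio scaling 311, against 206; without 1 uninduced library the number ran from 222 to 229. Windows above the mark in all induced poly(A)+ libraries numbered 4, and 2 above 2000, 11 with scaling, 2 at 5 times each library's smallest value (chosen after seeing the data) and 4 to 12 without 1 library. In ribo-minus RNA the 10 became 4, 61 and 3 under the same settings and 10 to 14 without 1 library. With scaling, both counts are among the 311 windows quiet after scaling. In the ribo-minus knockdown fit, 14 strands of all windows were called, and 29 with log2(value + 1), 54 with log2(value + threshold), 3 with the filter at 1 library, 22 with a mean of at least 5000, 207 with all 11 libraries, 3 with the unseparated library kept and 3 to 13 without 1 library (3, 5 and 4 without uninduced replicates 2 and 3 and induced replicate 1). Called quiet strands numbered 0 there, but 1 with log2(value + threshold) and 18 with all 11 libraries. Between fractions, 1775 strands were called, 743 with scaling and 1685 to 1803 without 1 library, and 10 quiet strands, 0 with a mean of at least 5000 (2 tested) and 6 to 8 without 1 library. With the replicate block, 1807 strands and the same 10 quiet ones were called between fractions. In the ribo-minus knockdown 18 and 0 were called, where deviations of same-numbered libraries did not go together (correlations of 0.011 and 0.008). Which strands outside the quiet windows changed with the block was not compared. The causes of these shifts were not tested. Read depth is unknown, so no counting interval is given, and a strand at 0 is limited only by its library's smallest value.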
